A study of Mus musculus with 8 samples.

Results

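Small nucleolar RNAs (snoRNAs) were examined in lung mesenchymal cells from mice with bleomycin injury and from control mice. The genes were chosen by name and not by their differences, though with earlier results of these data known. They are all genes whose only annotated symbol for a probe set begins with Snora or Snord and a number, each represented by its brightest probe set. This gave 73 genes of the 22180 genes tested, 47 of them of the C/D box class (Snord symbols) and 26 of the H/ACA box class (Snora symbols). Bleomycin samples came from 11-week-old C57BL/6J mice given bleomycin, a DNA-damaging drug that injures the lung, into the trachea, and control samples came from mice of the same strain and age given phosphate-buffered saline (PBS) by the same route. In both groups the cells were taken on day 10 by flow cytometry as cells without CD45, CD31 and EpCAM, surface proteins of leukocytes, endothelium and epithelium. There were 4 bleomycin and 4 control arrays, a number that limits how precise any value can be. Nothing in the labels ties a replicate to its own animal, and p-values therefore reflect the spread among these arrays, part of which may be technical. Levels are the deposited values, taken as log2, and differences are bleomycin minus control on that scale with the standard error (SE) of the fit.

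snoRNAs work in the nucleolus as the guide part of small ribonucleoproteins. C/D box RNAs, carried by fibrillarin, Nop56, Nop58 and Snu13, mostly direct methylation of ribosomal RNA (rRNA), and H/ACA box RNAs, carried by dyskerin (Dkc1), Nop10, Nhp2 and Gar1, mostly direct the conversion of uridine to pseudouridine. Most mammalian snoRNAs are cut out of introns of other genes, the host genes, many of which encode ribosomal proteins and translation factors or are long non-coding RNAs. Many host genes start transcription within a tract of C and T letters, the terminal oligopyrimidine tract, which is known for coupling translation of such RNAs to growth signals. A few snoRNAs, among them U3, U8 and U13, have genes of their own and take part in cutting the rRNA precursor.

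All 73 genes were found in the RefSeq gene table of GRCm38.p6. The annotated RNAs were 48 to 221 nucleotides long in the C/D class (median 68) and 56 to 205 in the H/ACA class (median 118.5). For 70 of them another gene spans the whole RNA, and these 70 lie within 62 different genes. The table gives no strand, so a spanning gene is called a host from position alone. The sequence around the start of some host genes is shown here, because the 5 snoRNAs of lowest difference lie in the first of them and several snoRNAs share the last ones. Each line holds 30 bases before and 20 bases after the annotated start on the gene's own strand, from RefSeq. Capitals mark the first C followed by at least 4 further C or T letters, read from 10 bases before to 10 bases after the start, so a run that begins farther upstream, as in Tcp1, is marked only from there.
Eif5, GRCm38.p6 chr12:111538071-111538120, plus strand, host of Snora28: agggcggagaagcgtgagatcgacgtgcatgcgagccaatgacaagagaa
Ap1g1, GRCm38.p6 chr8:109778553-109778602, plus strand, host of Snord71: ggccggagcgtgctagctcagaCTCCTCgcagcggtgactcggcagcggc
Eef2, GRCm38.p6 chr10:81176601-81176650, plus strand, host of Snord37: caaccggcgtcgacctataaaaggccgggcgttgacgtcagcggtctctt
Snx5, GRCm38.p6 chr2:144270553-144270602, minus strand, host of Snord17: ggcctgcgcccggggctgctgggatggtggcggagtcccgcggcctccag
Tcp1, GRCm38.p6 chr17:12916299-12916348, plus strand, host of Snora20: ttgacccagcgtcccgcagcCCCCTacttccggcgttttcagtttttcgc
Snhg12, GRCm38.p6 chr4:132308648-132308697, plus strand, host of Snora16a, Snora44, Snora61 and Snord99: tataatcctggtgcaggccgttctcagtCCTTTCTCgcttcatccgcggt
2410006H16Rik, GRCm38.p6 chr11:62602847-62602896, plus strand, host of Snord49a, Snord49b and Snord65: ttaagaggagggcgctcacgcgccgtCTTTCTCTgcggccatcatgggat
A tract of this kind stood in 22 of the 48 host genes with a start sequence (45.8%) and in 33.3% of the 27025 RefSeq genes with one. On the opposite strand the shares were 20.8% and 31.6%. A match describes the letters in this window and does not show a functional tract. A missing match does not show that a host lacks one. In Eef2, for example, such a run ends the printed line, past the 10 bases after the annotated start that were read.

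Of the 73 snoRNA genes, 11 fell and 1 rose after bleomycin (limma with Benjamini-Hochberg adjustment over every gene, threshold 0.05). Over all 22180 genes 8.24% fell, 9.12% rose and 17.4% did either, so the share of snoRNA genes that fell (15.1%) was above the background and the share that rose (1.37%) below it, while 12 of 73 in either direction lay near it. The falls were 6 of 26 H/ACA genes (23.1%) and 5 of 47 C/D genes (10.6%), and the rise was a C/D gene, Snord118. At an unadjusted p under 0.05, 9 of 26 H/ACA genes were lower and 0 higher, against 11 lower and 7 higher of 47 C/D genes and 14.1% lower and 16.5% higher of all tested genes. Of the 16010 probe sets without a gene, 3046 were lower and 1193 higher at that unadjusted threshold in a limma fit of all rows together. Differences ran between -1.31 and 0.30 in the H/ACA class and between -1.27 and 0.68 in the C/D class. The 2 groups stood apart, with no overlap between arrays, in 11 snoRNA genes that were lower and 2 that were higher, against 11% and 12.5% of all tested genes and 10.7% and 4.52% of the probe sets without a gene. The mean level of 5 of the 73 genes lay below the median of the probe sets without a gene, as did that of 29.3% of all tested genes. In bulk samples such as these, fewer cells that hold an RNA and less of it per cell cannot be told apart.

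**Figure D1:**
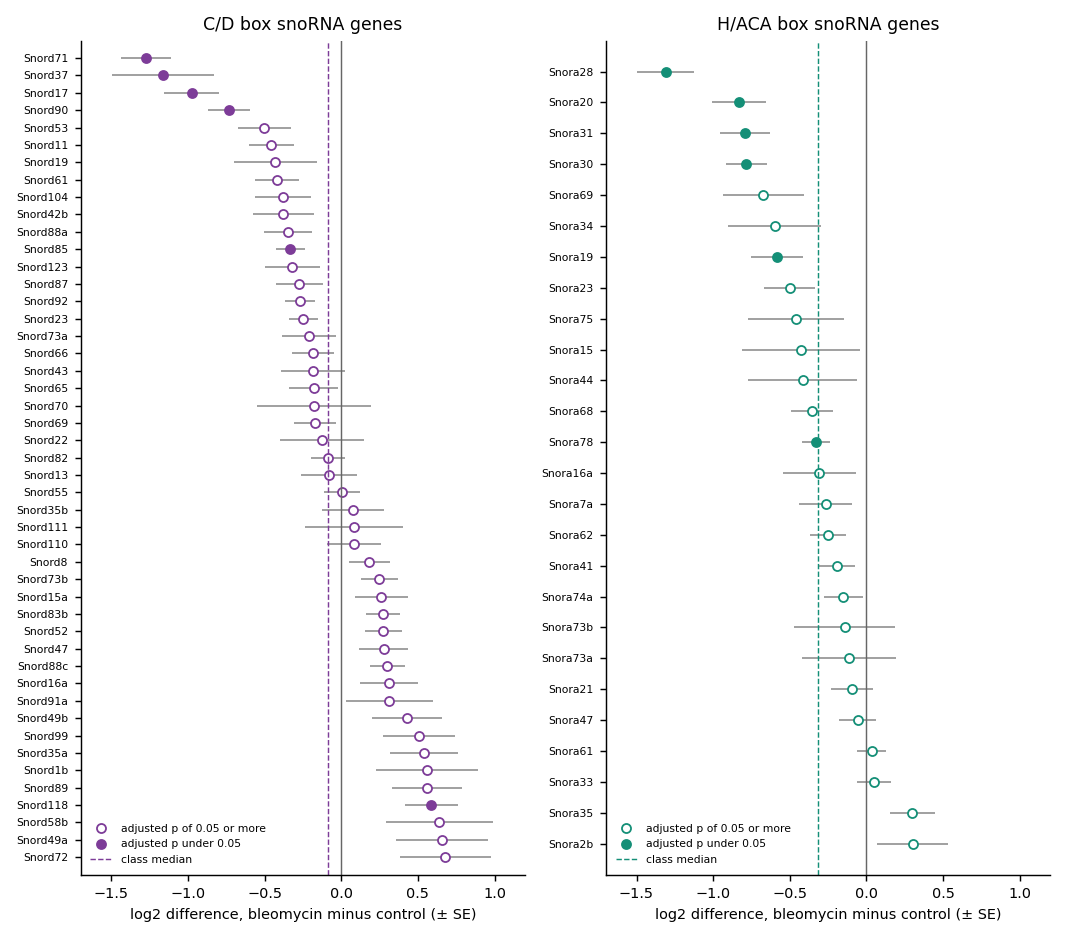
log2 difference, bleomycin minus control, with its SE for each of the 47 C/D box (left) and 26 H/ACA box (right) snoRNA genes, ordered by size; filled points have an adjusted p under 0.05 and the dashed line is the class median. Of the H/ACA genes 22 lie left of 0, and the C/D genes lie on both sides, 25 left and 22 right of 0.

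Snora28 fell most. This H/ACA RNA, which in human cells guides pseudouridine formation in the rRNA of the small ribosomal subunit, stood at 6.31, 6.23, 5.47 and 6.13 on the bleomycin arrays, against 7.57, 7.27, 7.50 and 7.04 on the control arrays. Every bleomycin array lay below every control array, and the difference of -1.31 ± 0.19 is a 2.48-fold fall (adjusted p = 0.00107). Its 8 values are also listed under a second probe set that has no gene in the annotation, so the 2 rows are 1 measurement. Snora20, which lies within the chaperonin gene Tcp1, had 4.24, 4.45, 4.54 and 4.66 on the bleomycin arrays, against 5.81, 5.18, 5.34 and 4.89 on the control arrays, a difference of -0.83 ± 0.18 (adjusted p = 0.00896). The groups did not overlap, and control replicate 1 was the highest array. Snora31, within the translationally controlled tumour protein gene Tpt1, had 7.02, 6.27, 6.56 and 6.83, against 7.71, 7.51, 7.35 and 7.27 in controls, a difference of -0.79 ± 0.16 (adjusted p = 0.00759). Snora30, within the chromatin remodeller gene Srcap, had 6.41, 6.08, 6.27 and 6.12, against 7.14, 6.64, 7.02 and 7.21 in controls, a difference of -0.78 ± 0.13 (adjusted p = 0.00305). Neither gene's groups overlapped.

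Among C/D box RNAs the clearest fall was that of Snord71, which in human cells guides methylation of a large-subunit rRNA. It stood at 7.71, 8.21, 8.10 and 8.54 on the bleomycin arrays, against 9.17, 9.49, 9.50 and 9.49 on the control arrays. All bleomycin arrays lay below all control arrays, by -1.27 ± 0.16 or 2.42-fold (adjusted p = 0.000561), the smallest adjusted p of the 73 genes. Snord17, the longest C/D RNA of the set at 221 nucleotides, had 7.73, 7.30, 7.55 and 7.22, against 8.96, 8.28, 8.18 and 8.28 in controls, a difference of -0.98 ± 0.18 (adjusted p = 0.00438). Snord90, within the RNA-binding ubiquitin ligase gene Rc3h2, had 2.98, 3.16, 2.50 and 2.89, against 3.75, 3.49, 3.68 and 3.55 in controls, a difference of -0.73 ± 0.14 (adjusted p = 0.00458). Its groups did not overlap, but on all 8 arrays it lay under the median signal of probe sets that have no gene. Detection calls were not used here, so signal at this level cannot be told apart from background. The calls of Snora28, Snord71, Snord17, Snora20, Snora31, Snora30 and Snord90 held in each of the 8 fits that left out 1 array.

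**Figure D2:**
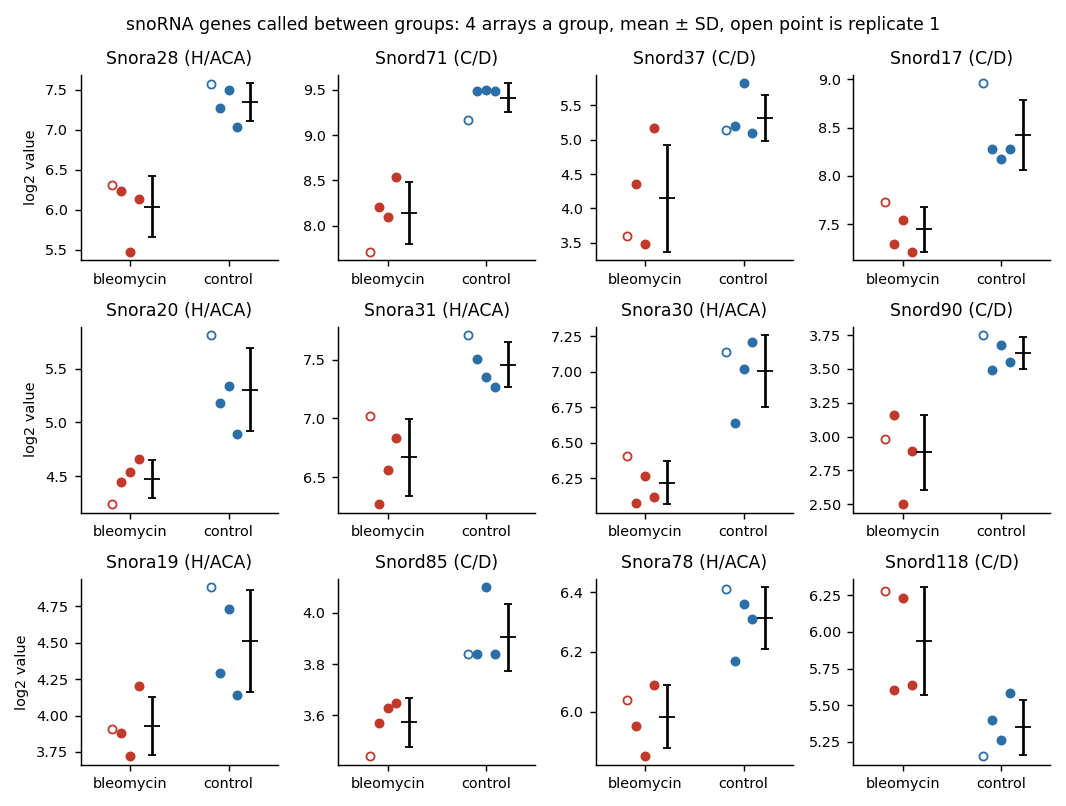
log2 values on the 4 bleomycin and 4 control arrays of the 12 snoRNA genes with an adjusted p under 0.05; each point is an array, open points are replicate 1, and bars show the mean ± SD. The groups overlap in Snord37 and Snora19 and stand apart in the other 10 genes; Snord118 is the one gene higher in the bleomycin samples.

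The remaining 5 calls lay nearer the threshold, with limma adjusted p between 0.0333 and 0.0405. Each was lost in 5 to 7 of the 8 fits that left out 1 array, with its sign kept. Such fits hold fewer arrays, and a lost call does not show that it rested on the array left out. Snord37, within the elongation factor gene Eef2, had 3.6, 4.35, 3.48 and 5.16 on the bleomycin arrays, against 5.14, 5.19, 5.82 and 5.10 on the control arrays, and bleomycin replicate 4 lay among the controls. Its difference of -1.16 ± 0.33 (adjusted p = 0.0355) lost its call in the fits without any of the arrays except bleomycin replicate 4, with differences between -1.24 and -0.94 (adjusted p between 0.0561 and 0.0985). Snora19, within Eif3a, differed by -0.58 ± 0.17 (adjusted p = 0.0403) with groups that overlapped and values under that median on 6 arrays. It lost its call without bleomycin replicate 1, 2 or 3 or control replicate 1 or 3 (-0.58 to -0.46, adjusted p between 0.0841 and 0.108). Snord85 differed by -0.33 ± 0.10 (adjusted p = 0.0369) and, like Snord90, lay under the median of the gene-free probe sets on all 8 arrays. It lost its call without any of the arrays except bleomycin replicate 4 (-0.35 to -0.27, adjusted p between 0.056 and 0.103). Snora78, spanned by Rps2 and Snhg9, differed by -0.33 ± 0.09 (adjusted p = 0.0333) and lost its call without bleomycin replicate 1, 2 or 3 or control replicate 1, 3 or 4 (-0.35 to -0.28, adjusted p between 0.0549 and 0.0904).

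Snord118, the U8 RNA, was the snoRNA gene that rose. U8 is transcribed from its own gene and is needed to process the precursor of the large-subunit rRNAs. It stood at 6.28, 5.60, 6.23 and 5.64 on the bleomycin arrays, against 5.15, 5.40, 5.26 and 5.58 on the control arrays. The groups were apart by little, since the lowest bleomycin value was 5.60 and the highest control value 5.58. The difference was 0.59 ± 0.17 (adjusted p = 0.0405), and the call was lost without bleomycin replicate 1 or 3 or control replicate 1, 2 or 3 (0.47 to 0.60, adjusted p between 0.074 and 0.107). It was also lost with all rows tested together (adjusted p = 0.0757) and with arrays centred on tested genes (adjusted p = 0.0519), among 13 of 22 alternatives.

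The classes differed in where their members lay. The median difference was -0.319 over the H/ACA genes and -0.087 over the C/D genes, against 0.027 over all tested genes and -0.061 over the 16010 probe sets without a gene. Below 0 lay 22 of 26 H/ACA genes (84.6%), 25 of 47 C/D genes (53.2%), 57.6% of the probe sets without a gene and 45.2% of all tested genes. When all rows of the table were tested together, 8.02% of the probe sets without a gene fell and 1.97% rose. In that same fit 7 of 73 snoRNA genes fell and 0 rose, the falls being 4 of 26 H/ACA and 3 of 47 C/D genes. Of all 22180 genes 1361 fell and 1505 rose there. The shares of the probe sets without a gene are to be set beside these counts and not beside those of the reported fit. These are descriptions, since members of a class are not replicates, and they share arrays and in part hosts. The level of the probe sets without a gene was itself lower in the bleomycin samples, where the array medians averaged 4.25, against 4.48 in controls. Setting the arrays to a common median of those probe sets moved the median of all tested genes to 0.256, the H/ACA median to -0.09 and the C/D median to 0.142. On that scale 8 of 73 snoRNA genes fell and 14 rose, against 4.32% and 35.1% of all tested genes.

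To compare arrays, each gene's mean over the 8 arrays was subtracted and the median of what remained was taken over the class. For the H/ACA genes this median was 0.10, -0.23, -0.30 and -0.22 on bleomycin replicates 1 to 4, against 0.56, 0.10, 0.02 and -0.09 on control replicates 1 to 4. The groups overlapped, since bleomycin replicate 1, the highest bleomycin array, lay above control replicates 3 and 4. For the C/D genes it was 0.12, -0.11, 0.04 and -0.07, against 0.33, -0.02, -0.03 and -0.08 in controls, and of these control replicate 1 alone stood above all bleomycin arrays. The C/D median minus the H/ACA median within an array was 0.02, 0.12, 0.34 and 0.15 on the bleomycin arrays, against -0.22, -0.12, -0.05 and 0.01 on the control arrays. The groups stood apart in this quantity by 0.02 against 0.01 at their nearest. The difference between the class medians was 0.232 and lay between 0.177 and 0.332 under the alternatives that were run on both classes. Without control replicate 1 the H/ACA median was -0.138 and the C/D median 0.079.

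**Figure D3:**
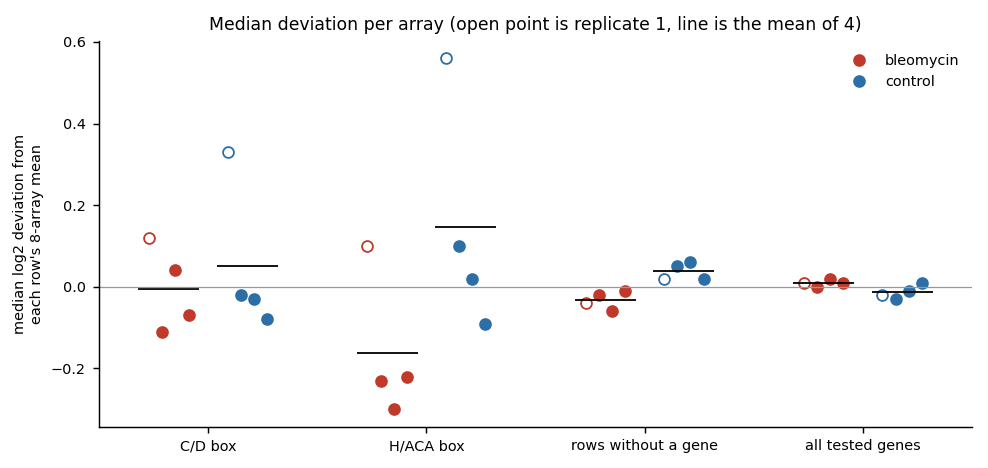
Median over each class of the log2 deviation from the row's own mean over 8 arrays, for each bleomycin and control array; open points are replicate 1 and the line is the mean of the 4 arrays. Replicate 1 is the highest array of its group for both snoRNA classes and is not the highest for the probe sets without a gene or for the tested genes as a whole.

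Much of the spread of snoRNA levels lay between replicates of a group. Replicate 1 was the highest array of both groups in 35 of 73 snoRNA genes (47.9%), against 7.64% of all tested genes and 6.08% of the probe sets without a gene. The deviations of the snoRNA genes from their group means correlated between bleomycin replicate 1 and control replicate 1 (r = 0.693 across the 73 genes, which are not independent), against r = 0.129 across all tested genes. It was 0.105, -0.063 and 0.443 for the arrays numbered 2, 3 and 4, and 0.678 between bleomycin replicate 4 and control replicate 3, and the numbers were not taken as pairs. Snora44 is an example, at 9.44, 8.30, 8.33 and 7.99 on the bleomycin arrays and 9.92, 8.63, 8.70 and 8.48 on the control arrays. The median SE of a difference was 0.173 for snoRNA genes and 0.116 for all tested genes. Leaving out replicate 1 of both groups, an alternative chosen after seeing the data, gave 9 falls and 2 rises, 7 of the 12 calls among them, against 4.13% and 5.28% of all tested genes. The trait was also seen in 2 of 5 other short non-coding RNAs, Rny1 and Rny3, RNA components of Ro particles, and in 0 of 5 Scarna genes and 4.03% of 472 microRNA genes. Rny1 had 10.50, 9.50, 9.21 and 8.88 on the bleomycin arrays and 10.35, 9.64, 9.27 and 8.75 on the control arrays. What sets replicate 1 apart was not tested.

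The brightest snoRNA probe sets were those of the C/D RNAs Snord82, Snord47, Snord87, Snord99 and Snord49b and of the H/ACA RNAs Snora33, Snora62, Snora23, Snora21 and Snora16a, and none of them passed the test. Snora33, within the ribosomal protein gene Rps12, had 12.11, 11.87, 12.30 and 12.16 on the bleomycin arrays, against 12.14, 11.87, 12.08 and 12.15 on the control arrays (adjusted p = 0.81). The groups overlapped almost wholly. Its second, dimmer probe set averaged 4.89 in bleomycin samples and 5.53 in controls and did not pass either (-0.64 ± 0.27, adjusted p = 0.164 with all rows tested together). Snord82, within the nucleolin gene Ncl, had 11.76, 11.82, 11.50 and 11.66, against 11.92, 11.73, 11.90 and 11.55 in controls (-0.09 ± 0.11, adjusted p = 0.65). Those groups overlapped too. Snora23 differed by -0.50 ± 0.17 (adjusted p = 0.0664) and passed without bleomycin replicate 4 (-0.61, adjusted p = 0.0327), with arrays centred on tested genes, with trended robust moderation and under both filters on dim genes (adjusted p between 0.0408 and 0.0495 in these 4). Snord99 differed by 0.51 ± 0.24 (adjusted p = 0.176) and passed without control replicate 1 (0.72, adjusted p = 0.0426). A probe set's brightness depends on its probes, so levels of different RNAs cannot be ranked by it.

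Apart from Snord118, the C/D RNAs with the highest differences did not pass. Snord72, within the ribosomal protein gene Rpl37, had 6.27, 5.64, 5.59 and 5.23, against 5.90, 4.66, 4.94 and 4.51 in controls (0.68 ± 0.30, adjusted p = 0.152). Snord49a (0.66), Snord58b (0.64), Snord89 (0.56), Snord1b (0.56), Snord35a (0.54) and Snord99 (0.51) had the same sign, and in all 7 of them replicate 1 was the highest array of each group. With the replicate number as a block in the limma fit, Snord72, Snord49a, Snord58b, Snord89 and Snord99 passed (adjusted p between 0.00899 and 0.0361). Snord1b, Snord35a and Snord118 did not. Of all 22180 genes 1937 rose in that fit.

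Of the rRNA processing RNAs, 6 of 14 listed were among the 73 genes, and of these Snord118 passed. U13 (Snord13), which has its own gene, had 9.86, 9.81, 9.41 and 9.66, against 10.31, 9.79, 9.49 and 9.46 in controls (-0.08 ± 0.18, adjusted p = 0.819). U22 (Snord22), from the long non-coding RNA Snhg1, differed by -0.13 ± 0.28 (adjusted p = 0.802). Both copies of U17, Snora73a and Snora73b, lie within Snhg3, are close in sequence and may share signal. They differed by -0.11 ± 0.31 and -0.14 ± 0.33 (adjusted p of 0.844 and 0.816), and on both of them replicate 1 was the highest array of each group. Snora62 (E2), within the laminin receptor and ribosomal protein gene Rpsa, differed by -0.25 ± 0.12 (adjusted p = 0.177). Imprinted snoRNA clusters were not analysed here.

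The measured host genes of the falling snoRNAs did not pass the test. For 59 snoRNA genes exactly 1 spanning gene was measured, and these 59 lie within 45 hosts. Of the 11 snoRNA genes that fell, 10 are among them, and 0 of their hosts were called, with host differences between -0.13 and 0.28. Eif5, the translation initiation factor gene that holds Snora28, differed by -0.09 ± 0.11 (adjusted p = 0.649), while Snora28 fell by 1.31. Ap1g1, a clathrin adaptor gene that holds Snord71, differed by 0.15 (adjusted p = 0.407), and Snx5, a sorting nexin gene that holds Snord17, by -0.13 (adjusted p = 0.375). Snord71 is also spanned by the long non-coding RNA gene Gm17344, which was not measured. A p above the threshold does not show that a host stayed equal. Across the 59 pairs the snoRNA and host differences had a Pearson r of -0.05 and a Spearman rho of -0.12, given as a description, since pairs share arrays and some share a host. In 41 of the 59 pairs the snoRNA's difference was below the host's.

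**Figure D4:**
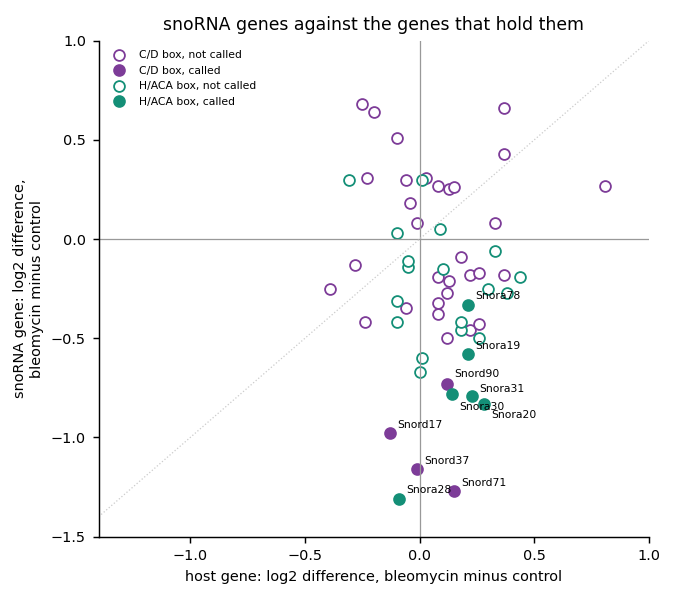
log2 difference, bleomycin minus control, of each snoRNA gene (vertical) against that of the 1 measured gene that spans it (horizontal), for 59 snoRNA genes; filled points are called, and the dotted line marks equal differences. The 10 called snoRNA genes lie between -1.31 and -0.33 on the vertical axis, with hosts between -0.13 and 0.28 on the horizontal axis.

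Among the 47 host genes with a probe set of their own, 5 rose and 1 fell (median 0.10), against 9.12% and 8.24% of all tested genes. The hosts that rose were the long non-coding RNAs 1110038B12Rik (0.81 ± 0.10, adjusted p = 0.000617), Snhg6 (0.69 ± 0.12, adjusted p = 0.00344) and 2410006H16Rik (0.37 ± 0.11, adjusted p = 0.048), the elongation factor gene Eef1b2 (0.44 ± 0.10, adjusted p = 0.0153) and the ribosomal protein gene Rpl32 (0.38 ± 0.11, adjusted p = 0.0316). Nop53, a ribosome assembly factor gene, fell by 0.39 (adjusted p = 0.0271). None of the snoRNAs within these 6 hosts passed. Of the 8 snoRNA genes they hold, 4 had the sign of the host and 4 the opposite sign. The same sign was seen in Snord52 within 1110038B12Rik (0.27), Snord49a (0.66) and Snord49b (0.43) within 2410006H16Rik and Snord23 within Nop53 (-0.25). The opposite sign was seen in Snord87, which Snhg6 and Mcmdc2 both span (-0.27), Snora7a within Rpl32 (-0.27), Snora41 within Eef1b2 (-0.19) and Snord65 within 2410006H16Rik (-0.18).

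Several hosts carry more than 1 of the snoRNA genes, 11 in all among those measured, which sets RNAs within the span of 1 gene side by side. Whether they come from 1 transcript was not tested. Snhg12, itself at -0.10, carries the H/ACA RNAs Snora44 (-0.42), Snora16a (-0.31) and Snora61 (0.03) and the C/D RNA Snord99 (0.51). On the bleomycin arrays Snord99 had 10.80, 10.31, 10.11 and 9.93, against 10.41, 9.81, 9.48 and 9.43 on the control arrays. Every bleomycin array lay above control replicates 2, 3 and 4, and control replicate 1 lay among the bleomycin arrays. Nucleolin (0.18) carries the H/ACA RNA Snora75 (-0.46) and the C/D RNA Snord82 (-0.09). In both hosts that hold RNAs of both classes the C/D RNA had the higher difference, and none of these 6 RNAs passed. Of the 9 hosts with several RNAs of 1 class, 5 held differences of both signs and 4 of 1 sign. 2410006H16Rik carries Snord49a (0.66 ± 0.30), Snord49b (0.43 ± 0.23) and Snord65 (-0.18 ± 0.16), Kansl2 carries Snora2b (0.30) and Snora34 (-0.60), 2410002F23Rik carries Snord88c (0.30) and Snord88a (-0.35), Rpl3 carries Snord83b (0.27) and Snord43 (-0.19), and Rps3a1 carries Snord73b (0.25) and Snord73a (-0.21). Of 1 sign were the RNAs of Wdr43 (Snord53 at -0.50 and Snord92 at -0.27), Nop58 (Snord11 at -0.46 and Snord70 at -0.18), Gnl3 (Snord19 at -0.43 and Snord69 at -0.17) and Snhg3 (Snora73b at -0.14 and Snora73a at -0.11). None of the RNAs in these 9 hosts passed.

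By the host's start sequence, the median difference was 0.178 for the 12 C/D genes in a host with a C and T tract and -0.178 for the 19 in a host without one. For H/ACA genes the medians were -0.308 for 11 genes with a tract in the host and -0.425 for 11 without. These counts cover snoRNA genes with 1 spanning gene for which a start sequence was held. The medians are descriptions, since members are not replicates and several share a host on both sides of the split. Snord49a, Snord49b and Snord65, for example, all count as genes with a tract through 2410006H16Rik. Hosts are split by a match within the window alone, so those without one may hold a functional tract. With a tract in the host 1 C/D and 2 H/ACA genes fell, and without one 2 C/D and 3 H/ACA genes.

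Of the genes for proteins that carry snoRNAs, 1 passed the test. The counts that follow stand against 9.12% of all tested genes that rose and 8.24% that fell, and none of them is read as a result about its list. Of the C/D core proteins, 0 of 3 measured genes passed, with differences between -0.25 and 0.22. Of the 4 H/ACA core proteins 1 rose, Nhp2, at 6.95 ± 0.13 in bleomycin samples and 6.43 ± 0.19 in controls (SD, n = 4 each; 0.52 ± 0.11, limma adjusted p = 0.0114). Nhp2 binds the RNA within the H/ACA particle, and its groups did not overlap. The other H/ACA core genes differed by -0.01 to 0.32, the highest being Dkc1, which encodes the pseudouridine synthase dyskerin (adjusted p = 0.13). Of 14 measured genes for snoRNP assembly and trafficking 0 passed, with a median of 0.04. Of 18 measured non-coding genes listed as snoRNA hosts, Snhg6, Zfas1 (0.54) and Snhg15 (0.53) rose and Snhg14 (-0.76) fell. Of 23 listed coding hosts Rcc1 (0.37) rose and Eif4a2 (-0.72) fell. These lists hold known hosts, whether or not a snoRNA of theirs was measured here. Of 25 ribosome biogenesis genes 3 rose and 0 fell, with a median of 0.15. Myc, a transcription factor known for driving ribosome production, rose by 0.99 ± 0.21 (adjusted p = 0.00896), the ribosome assembly gene Bop1 by 0.44 ± 0.13 (adjusted p = 0.0396) and the RNA polymerase I subunit gene Polr1e by 0.34 ± 0.09 (adjusted p = 0.0229).

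Cajal body RNAs (scaRNAs), the relatives of snoRNAs that guide modification of spliceosomal RNAs, were compared as a neighbouring class. Of 5 measured Scarna genes 2 fell and 0 rose, against 8.24% and 9.12% of all tested genes. Scarna17 stood at 8.57, 8.99, 9.01 and 9.45 on the bleomycin arrays, against 10.29, 9.99, 10.52 and 10.69 on the control arrays, a difference of -1.37 ± 0.19 (adjusted p = 0.000989). Scarna2 stood at 10.07, 10.14, 10.21 and 10.42, against 10.90, 10.78, 11.03 and 11.03 in controls, a difference of -0.73 ± 0.10 (adjusted p = 0.00111). Neither gene's groups overlapped, and in neither was replicate 1 the highest bleomycin array. Of the other short non-coding RNAs listed, Rpph1, Rn7sk, Terc, Rny1 and Rny3, 0 passed. Among 472 microRNA genes 38 fell (8.05%) and 13 rose (2.75%), with a median difference of -0.045. The share that fell lay near the 8.24% of all tested genes, and the share that rose lay below their 9.12%.

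The label of mesenchymal cells was checked against marker genes. The mesenchymal genes Col1a1, Col1a2 and Pdgfrb rose and Pdgfra fell, and all 4 were bright in both groups, with Col1a1 at 12.77 in bleomycin samples and 11.94 in controls. Signal for other cell types was present too. Of 8 epithelial markers 5 fell and 0 rose, and their mean was 6.43 to 7.18 on bleomycin arrays, against 8.66, 8.64, 7.87 and 7.77 on control replicates 1 to 4. Of 5 endothelial markers 5 fell, with means of 7.76 to 8.33 on bleomycin arrays, against 9.84, 9.95, 9.01 and 8.81 on control replicates 1 to 4. Of 5 leukocyte markers 2 rose and 0 fell, with means of 7.18 to 7.54 on bleomycin arrays and 7.06 to 7.45 on control arrays. The part of these cell types in the snoRNA differences was not tested. Without control replicates 1 and 2, the arrays with the most epithelial and endothelial signal, 6 of 73 snoRNA genes fell and 1 rose, against 4.47% and 5.43% of all tested genes. There the H/ACA median was -0.084 and the C/D median 0.113.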

How the data were processed

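RNA came from RNeasy silica columns, per the labels' protocols. Such columns recover short RNAs less fully than long ones, and recovery was not tested. The deposited table holds 1 value per probe set, taken as log2 from its range. How the authors corrected background, summarised and normalized is not given in the sources used here; each tested-gene array median lay near the others, at 5.53 on average in bleomycin samples and 5.48 in controls. Of 41345 rows, 23521 had 1 gene, 1814 several and 16010 none. Detection calls were not used.

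Values were used as deposited. The brightest row per gene was tested over all 22180 genes by limma (version 3.58.1, R version 4.3.3; lmFit, then eBayes), with two-sided p-values and Benjamini-Hochberg adjustment. Tables were made with pandas 2.3.3 and figures with matplotlib 3.10.9. The fit was tested on simulated data. A further 43 rows pair a snoRNA with other genes and were not named. Hosts were found by position in RefSeq GRCm38.p6, whose start-sequence table was used for the host genes.

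Genes named are passing members whose groups stood apart, the 5 brightest of each class and fixed rRNA processing and host lists. Snord37, Snora19, Snora44, members sharing a host, the C/D genes of highest difference, hosts of named members and Dkc1 were named after their values were seen. All members and lists were chosen with earlier results of these data known. Same-numbered arrays correlated in their deviations by 0.063 to 0.129 over all genes, so the numbers were not taken as pairs. Across the groups, correlations within replicates 1 and 2 and within replicates 3 and 4 were all positive, at 0.063 to 0.129. Those between replicates 1 or 2 and replicates 3 or 4 were all negative, at -0.14 to -0.067. The reported fit has no block for this. Over all genes 2293 rose and 2168 fell with a block setting replicates 1 and 2 apart from 3 and 4, against 2022 and 1828. In that fit 12 snoRNA genes fell and 2 rose. The alternatives cover normalization, filters, rows, moderation, blocks and left-out arrays.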

Additional observations from a re-analysis of the deposited data

Results flagged for a closer look

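Among 56 groups of 4 arrays tested for an array far from the other 3 (28 named snoRNA genes in bleomycin and in control samples), 5 were marked by Dixon's test, all in controls, where chance marks about 5%. That rate holds for a group picked without regard to its values. These genes were named in part by their values and share the same arrays, so the marks are a description. Control replicate 1 stood apart in Snord71 at 9.17, against 9.49 to 9.50 on the other control arrays, in Snord17 at 8.96, against 8.18 to 8.28, and in Snord22 at 8.82, against 7.97 to 8.03. Control replicate 3 stood apart in Snord37 at 5.82, against 5.10 to 5.19, and in Snord85 at 4.10, against 3.84 on the others. Snord85 lay under the median of the gene-free probe sets on all 8 arrays.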

How the results depend on the processing

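Higher snoRNA genes, 1 as reported, numbered 0 with all rows tested together, with arrays centred on tested genes, in replicates 3 and 4 alone and at a threshold of 0.01, 2 with a block that sets replicates 1 and 2 apart from 3 and 4, with quantile normalization and without replicate 1 of both groups (chosen after seeing the data), 6 with the replicate number as a block and 14 with arrays centred on rows without a gene. Lower snoRNA genes, 11 as reported, numbered 7 with all rows and at the threshold of 0.01, 5 in replicates 1 and 2 alone, 2 in replicates 3 and 4 alone and 6 without control replicates 1 and 2 together. Over all 22180 genes, higher and lower calls numbered 1505 and 1361 with all rows and 838 and 833 in replicates 1 and 2 alone. They numbered 503 and 220 in replicates 3 and 4 alone and 1205 and 992 without control replicates 1 and 2. Without 1 array the snoRNA calls ranged from 7 to 15 lower and from 0 to 5 higher. The lowest count of 7 came without bleomycin replicate 2 or 3 or control replicate 1, the highest of 5 higher without control replicate 1. Over all 22180 genes the fits without 1 array gave 1306 to 1883 lower and 1497 to 1987 higher calls. Calls over all genes at the threshold of 0.01 are not given here. With the replicate number as a block 13 snoRNA genes fell and 6 rose, against 1838 and 1937 of all 22180 genes. The snoRNA calls held 8 of the 12 reported ones, and not every array correlated best with its own number. The 6 that rose were the C/D genes Snord72, Snord49a, Snord58b, Snord89, Snord99 and Snord49b (0.43 to 0.68, adjusted p between 0.00899 and 0.041). Snord118 lost its call with that block (adjusted p = 0.0864) and with replicates 1 and 2 blocked apart from 3 and 4 (adjusted p = 0.0507). The H/ACA median stayed negative under all alternatives run on it, between -0.403 and -0.084. The C/D median, -0.087 as reported, turned positive at 0.142 centred on rows without a gene, 0.072 in replicates 3 and 4 alone, 0.113 without control replicates 1 and 2, 0.079 without control replicate 1 (-0.161 to 0.079 without 1 array), and 0.002 under both filters on dim genes and with 1 snoRNA per host (chosen after seeing the data). The median of snoRNA genes minus that of rows without a gene, -0.12 as reported, was 0.035 in replicates 3 and 4 alone and 0.029 without control replicates 1 and 2. Higher hosts, 5 as reported, numbered 3 with all rows, with arrays centred on tested genes and without replicate 1 of both groups, 1 in replicates 1 and 2 alone and in replicates 3 and 4 alone, 2 without control replicates 1 and 2, 8 under both dim filters, 9 with trended robust moderation, 23 centred on rows without a gene, and 3 to 5 without 1 array. Lower hosts, 1 as reported, numbered 0 with all rows, centred on rows without a gene, without replicate 1, with the replicate block, in either pair of replicates and without control replicates 1 and 2, 2 with the block of 2 replicates each, centred on tested genes and under both dim filters, and 0 to 1 without 1 array. snoRNP protein genes, 1 higher and 0 lower as reported, had 10 higher centred on rows without a gene, 0 higher without replicate 1 of both groups, in either pair of replicates and without control replicates 1 and 2, and 0 to 1 lower without 1 array, the 1 arising without bleomycin replicate 4. Over all genes the 2022 higher and 1828 lower calls became 2271 and 2126 with trended robust moderation. They became 2230 and 2178 without genes below the median of rows without a gene and 2226 and 2184 without the dimmest 30 percent. Both of these filters left fewer genes to test. The calls became 1623 and 2314 centred on tested genes, 2567 and 1589 after quantile normalization and 7775 and 959 centred on rows without a gene. On that last scale 35.1% of all tested genes thus rose, the share beside which the 23 higher hosts and 10 higher snoRNP protein genes stand. For the 28 named snoRNA genes 513 values kept their side of the threshold, 78 lost a call and 19 gained one, and 34 of those never called changed sign. The cause of these changes was not tested.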
